A study of Homo sapiens with 8 samples.

Results

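The YAP target genes were followed in NS-SV-AC cells, immortalised human cells labelled as salivary acinar, during exposure to the inflammatory cytokine TNF-α. The group holds 10 genes chosen by name: CCN1 and CCN2, ANKRD1, AMOTL2, AJUBA and LATS2, AXL and F3, and TEAD1 and YAP1 themselves. On the platform 31 probe sets, short sets of array probes that read 1 transcript region, carried 1 of these symbols and no other, of 49386 probe sets in all and of 45253 with a single gene symbol. YAP1 had 8 of them, CCN2, AMOTL2, AJUBA, LATS2, F3 and TEAD1 had 3 each, CCN1 and AXL had 2 each and ANKRD1 had 1. All 10 genes were among the 18239 genes measured, and no filter on low values was applied.

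Cells received TNF-α at 20 ng/ml or the control protein bovine serum albumin (BSA). Total RNA was taken after 2, 6, 12 and 24 h. Each combination of treatment and time was measured on 1 Affymetrix GeneAtlas array, 8 arrays in all, so that there was no replicate at any time. All groups are the same cell line, which is a model of a single immortalised line and not of a gland. Values are log2 levels, so a difference of 1 is 2-fold, and differences are TNF-α minus BSA at the same time unless said otherwise.

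YAP1 encodes a transcriptional coactivator that cannot bind DNA by itself and acts through TEAD proteins such as TEAD1. The Hippo kinases, with LATS2 at the end of the cascade, phosphorylate YAP and hold it in the cytoplasm. When cells spread, stretch or lose contact with neighbours, YAP enters the nucleus and its target genes are transcribed. CCN1, CCN2 and ANKRD1 are widely used as readouts of this activity, and AMOTL2 and LATS2 are targets that feed back on YAP. Array levels report mRNA and say nothing of where the YAP protein was.

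TEAD proteins recognise the letters GGAATG, which read CATTCC on the other strand. Promoter windows from RefSeq (GRCh38.p14, 250 bases before to 50 after a transcript start) were listed for 8 of the 10 genes, 11 windows in all since AMOTL2, AJUBA and AXL had 2 each. CCN1 and TEAD1 had none in this table. The 2 targets that differed most between treatments are shown, together with F3, 5′ to 3′ on the gene's strand, with capitals marking GGAATG in the first 2 and TGAGTCA in F3.
CCN2 (chr6:131951323-131951622, minus strand): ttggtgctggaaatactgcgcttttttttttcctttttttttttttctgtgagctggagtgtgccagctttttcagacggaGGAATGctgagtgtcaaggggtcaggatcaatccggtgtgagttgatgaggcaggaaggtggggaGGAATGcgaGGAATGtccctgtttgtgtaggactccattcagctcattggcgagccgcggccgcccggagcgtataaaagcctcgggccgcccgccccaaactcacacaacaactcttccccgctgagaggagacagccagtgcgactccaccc
ANKRD1 (chr10:90921038-90921337, minus strand): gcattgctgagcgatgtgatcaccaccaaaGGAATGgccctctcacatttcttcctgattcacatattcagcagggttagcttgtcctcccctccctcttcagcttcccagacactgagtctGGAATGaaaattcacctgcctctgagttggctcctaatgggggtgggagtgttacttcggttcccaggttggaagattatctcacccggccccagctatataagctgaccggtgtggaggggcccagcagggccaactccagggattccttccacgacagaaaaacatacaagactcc
F3 (chr1:94541710-94542009, minus strand): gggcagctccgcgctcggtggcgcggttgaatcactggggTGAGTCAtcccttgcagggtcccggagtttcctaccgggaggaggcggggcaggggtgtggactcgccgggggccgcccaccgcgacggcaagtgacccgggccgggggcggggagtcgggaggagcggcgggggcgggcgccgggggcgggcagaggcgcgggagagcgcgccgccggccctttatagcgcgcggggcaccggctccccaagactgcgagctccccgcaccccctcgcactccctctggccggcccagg
The CCN2 window held GGAATG 3 times, with the first base 169, 104 and 95 bases before the start, and the ANKRD1 window held it 2 times, 220 and 128 bases before the start. F3 held no match in either orientation. It held TGAGTCA, a motif of AP-1 that reads TGACTCA on the other strand, 210 bases before the start. LATS2, YAP1, AMOTL2, AJUBA and AXL had 1 match to GGAATG or CATTCC each, the last 3 in 1 of their 2 windows. Of 35116 windows of 300 bases in the table, 14.0% held at least 1 match in either orientation, 1.37% at least 2 and 0.128% at least 3, and 4.95% held the AP-1 motif. The motifs do not overlap each other. A match describes these letters only.

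The arrays were not equal in RNA quality. On the TNF-α array at 24 h, GAPDH probe sets differed by 6.28 between the 3′ and 5′ ends of the transcript and ACTB probe sets by 6.88. The remaining 7 arrays had 0.20 to 0.37 for GAPDH and 2.59 to 3.47 for ACTB. The mean correlation of the TNF-α array at 24 h with the others, across genes, was 0.925, and the remaining 7 correlated with each other at 0.962 to 0.994. Such a gap is typical of degraded RNA, so results are given first from 2 to 12 h, and the 24 h values stand apart. Cytokine exposure was visible on every TNF-α array: TNFAIP3, an NF-κB target, read 11.21, 10.80, 9.56 and 9.86 with TNF-α at 2, 6, 12 and 24 h, against 3.34, 3.32, 3.26 and 3.75 with BSA.

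Markers of the labelled cell type were largely dim. With the TNF-α array of 24 h set aside, all 9 measured salivary acinar markers, AQP5 among them, lay between 2.41 and 4.22, and 9 of 9 were under the median of all genes (5.16) on each array. Of 7 epithelial markers 5 were under it, CDH1 and EPCAM among them, while KRT8 and KRT18 read up to 8.91 and 10.33. Of 7 fibroblast markers COL3A1 (8.91 to 9.40 from 2 to 12 h), LUM (7.51 to 8.20) and DCN (6.82 to 7.07) were bright, while 3 of 7 (COL1A1, COL1A2 and PDGFRA) were under the median on each array. Summed over the fibroblast list, levels ran from 41.4 to 41.7 on the TNF-α arrays from 2 to 12 h and from 41.3 to 42.2 on the BSA arrays from 2 to 24 h. The sum hides members that went in opposite directions. At 2, 6 and 12 h LUM differed between treatments by 0.21, 0.48 and 0.47 and PDGFRB by -0.30, -0.75 and -0.77. Neither passed in limma over these times (adjusted p = 0.204 and 0.168). The epithelial sum ran from 37.3 to 37.4 on the TNF-α arrays from 2 to 12 h and from 37.2 to 38.0 on the BSA arrays of the same times. It was 34.2 with BSA at 24 h. Within it KRT8 read 8.71 with BSA at 2 h and 6.37 with BSA at 24 h. Endothelial markers (4 measured) reached 5.05 and leukocyte markers (4 of 5 measured) 5.54. In such bulk RNA fewer cells of a kind and less RNA per cell cannot be told apart.

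**Figure D1:**
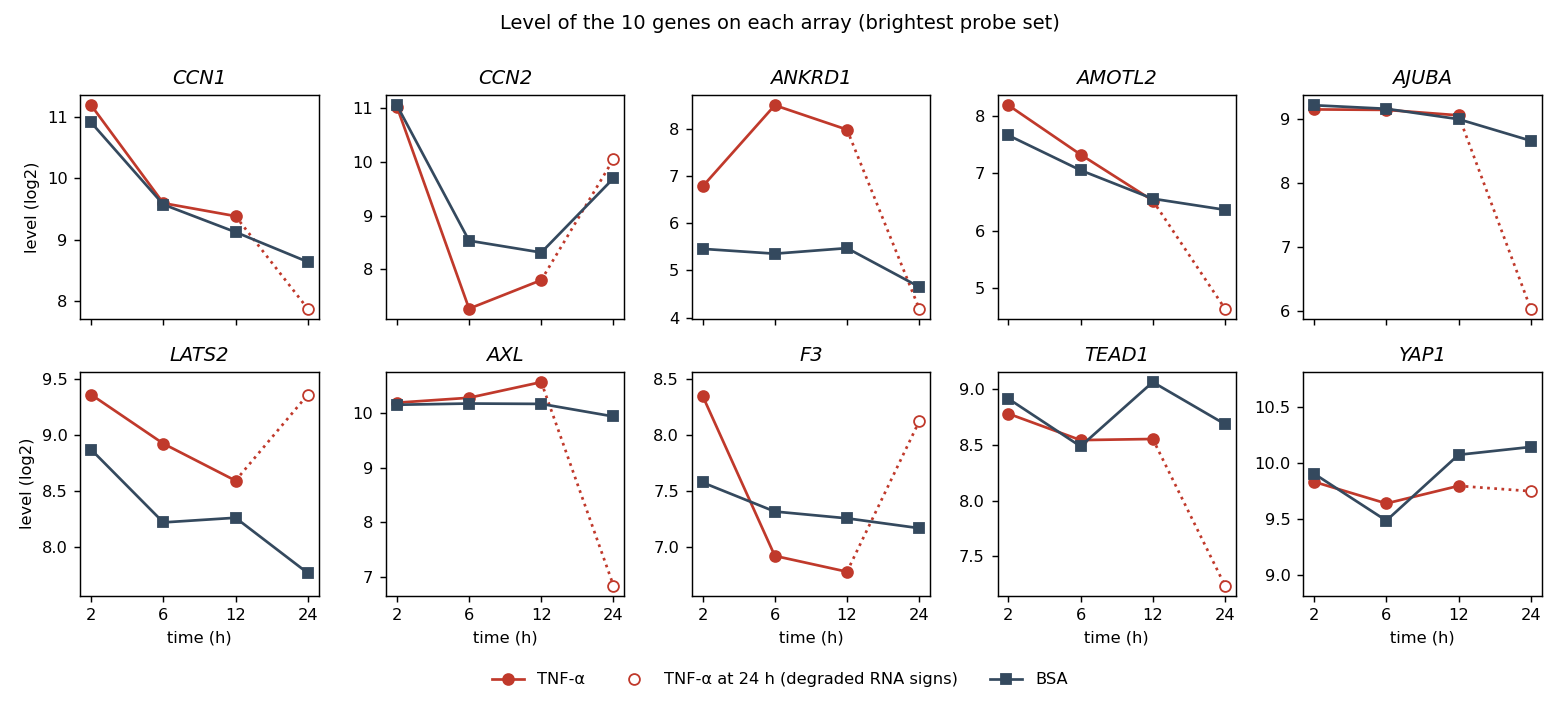
Level (log2) of the brightest probe set of each of the 10 genes against time in h, with times evenly spaced; circles are TNF-α and squares BSA, 1 array each, and the open circle is the TNF-α array with a GAPDH gap of 6.28. ANKRD1 stands above BSA from 2 to 12 h, while CCN1, CCN2 and AMOTL2 read lower at 6 and 12 h than at 2 h in both arms.

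Did TNF-α alter these genes? From 2 to 12 h ANKRD1 was the member furthest above BSA, CCN2 the member furthest below it at 6 h, and LATS2 read higher at each time. F3 read higher at 2 h and lower at 6 and 12 h, and AMOTL2 read higher at 2 h. YAP1, TEAD1, AJUBA and AXL differed by at most 0.51 on their brightest probe sets. None of the 10 passed the test across all genes.

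ANKRD1 encodes an ankyrin repeat protein, known from heart muscle, that acts as a transcriptional cofactor. It read 6.78, 8.50 and 7.99 with TNF-α at 2, 6 and 12 h, against 5.46, 5.36 and 5.47 with BSA. All 3 TNF-α values lay above all 4 BSA values. The differences were 1.32, 3.15 and 2.51, and at each of these times ANKRD1 ranked among the 62 genes with the largest excess in TNF-α (rank 62, 34 and 57 of 18239). At 24 h it read 4.19 with TNF-α and 4.65 with BSA, the lowest of both arms. Averaged over 2, 6 and 12 h it was 2.33 ± 0.32 higher (SE, 3 pairs of arrays), which did not pass in limma (adjusted p = 0.0809), and over the 4 times 1.63 ± 0.60 higher (adjusted p = 0.652). A single probe set read this gene, so no other probe set could be set beside it.

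CCN1 and CCN2 encode secreted matrix-associated proteins of 1 family. CCN1 read 11.19, 9.60 and 9.38 with TNF-α at 2, 6 and 12 h, against 10.91, 9.57 and 9.13 with BSA. The arms stayed within 0.28 log2 units of each other on this probe set, and the other probe set of CCN1 was 0.28, 0.11 and 0.52 higher with TNF-α. CCN2 read 11.03, 7.27 and 7.80 with TNF-α, against 11.05, 8.53 and 8.31 with BSA. At 2 h the arms were 0.03 apart, and at 6 h CCN2 differed by -1.26, further from 0 than in all but 1.13% of genes. All 3 of its probe sets were lower at 6 h, by -1.61 to -1.20, and at 12 h, by -0.67 to -0.51. Over 2 to 12 h CCN2 differed by -0.60 ± 0.22 (SE, 3 pairs, limma adjusted p = 0.33) and CCN1 by 0.19 ± 0.08 (adjusted p = 0.399).

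AMOTL2, AJUBA and LATS2 act on YAP rather than downstream of it alone. LATS2, the kinase, read 9.36, 8.93 and 8.59 with TNF-α, against 8.87, 8.22 and 8.26 with BSA. It was higher by 0.49, 0.70 and 0.33, and its second probe set by 0.60, 0.48 and 0.18, while the third was dim (2.84 to 3.21) in both arms. The mean over these times was 0.51 ± 0.09 (SE, 3 pairs, limma adjusted p = 0.161). AMOTL2, an angiomotin-like scaffold that binds YAP at cell junctions, read 8.18, 7.33 and 6.53 with TNF-α, against 7.66, 7.05 and 6.56 with BSA. Its excess of 0.52 at 2 h, beside 0.45 on a second, dimmer probe set, was 0.27 at 6 h, where the second probe set read -0.10, and -0.03 at 12 h. AJUBA, a LIM protein that binds and restrains LATS kinases, differed by at most 0.16 in either direction on any of its 3 probe sets from 2 to 12 h.

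AXL and F3 encode surface proteins. F3, tissue factor, which starts the extrinsic clotting cascade, read 8.35, 6.92 and 6.78 with TNF-α, against 7.58, 7.32 and 7.26 with BSA. It was 0.77 higher at 2 h and differed by -0.40 and -0.48 at 6 and 12 h. At 2 h only 0.724% of genes were as far apart, and all 3 probe sets were higher, by 0.48 to 0.83. At 6 h 2 of 3 probe sets were lower, and at 12 h 2 of 3. With opposite signs at 2 h and later, the mean over 2 to 12 h was near 0 (-0.03 ± 0.25, SE, 3 pairs). AXL, a receptor tyrosine kinase for GAS6, read 10.19, 10.28 and 10.57 with TNF-α, against 10.16, 10.18 and 10.17 with BSA. Its second probe set differed by -0.25, -0.17 and -0.04.

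YAP1 and TEAD1, the pair that drives these targets, were well above the median of all genes in both arms. YAP1 read 9.83, 9.64 and 9.80 with TNF-α, against 9.90, 9.49 and 10.07 with BSA. Over its 8 probe sets the differences ran from -0.10 to 0.40 at 2 h, from -0.14 to 0.30 at 6 h and from -0.30 to -0.04 at 12 h, when 8 of 8 were lower. TEAD1 read 8.78, 8.54 and 8.55 with TNF-α, against 8.91, 8.49 and 9.06 with BSA. The difference of -0.51 at 12 h was on the brightest probe set alone, and the other 2 read -0.04 and 0.00 apart.

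**Figure D2:**
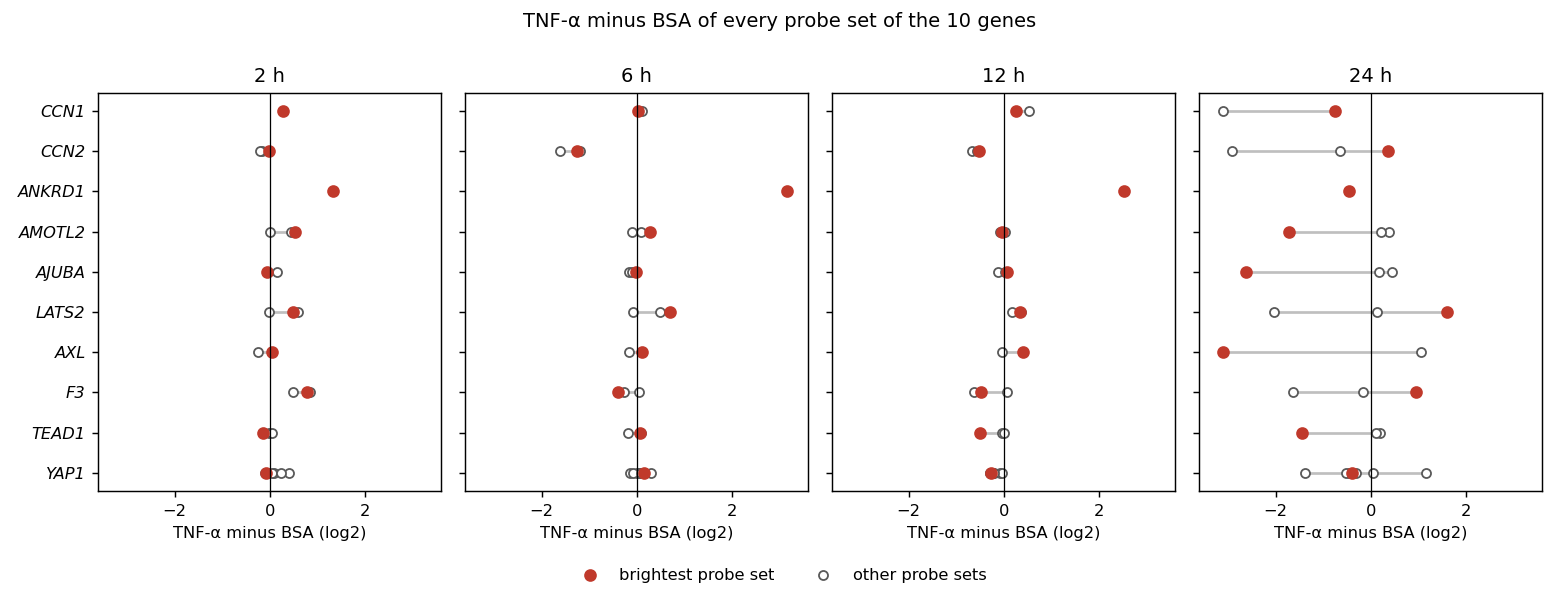
TNF-α minus BSA (log2) of all 31 probe sets at each time, 1 line of points per gene, with the brightest probe set filled and the others open. Among probe sets with a mean above 3.45, those of a gene lay within 0.69 of each other from 2 to 12 h, and at 24 h those of AXL spanned 4.15.

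Tested over 2, 6 and 12 h with limma, each TNF-α array against the BSA array of its time, 0 of the 10 genes passed an adjusted p of 0.05, beside 0.367% of all genes (67 of 18239). At an unadjusted p under 0.05 there were 2 higher, ANKRD1 and LATS2, beside 4.89% of all genes, and 1 lower, CCN2, beside 9.12%. Over the 4 times 0 passed, beside 0.0164% of all genes (3 of 18239), and ANKRD1 and LATS2 were higher at an unadjusted p under 0.05, beside 4.12%. For LATS2 this 4-time value, 0.78 ± 0.22 (SE, 4 pairs), rests on the brightest probe set: it was 0.23 with the mean of its probe sets, no longer under an unadjusted p of 0.05, and -0.19 on the second probe set. With the residual degrees of freedom at 2 and 3, the p-values reflect array noise together with any change of the effect over time, since no group has a second array.

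Counted without a test, 1 of 10 genes was at least 2-fold higher with TNF-α at 2, 6 and 12 h, ANKRD1 each time, beside 0.493%, 1.38% and 1.29% of all genes. At least 2-fold lower was 1 at 6 h, CCN2, beside 0.384% of all genes, and 0 at 2 and 12 h, beside 0.0439% and 0.839%. The median difference of the 10 genes was 0.16, 0.08 and 0.01 at 2, 6 and 12 h, beside -0.02, -0.01 and 0.00 over all genes. Of the 10 genes 6, 7 and 5 read higher at these times and the others lower. The test for a dependence of the difference on time, the product of treatment and log2 hours, called 0 of 10, beside 0.0% of all genes, and AMOTL2 alone had an unadjusted p under 0.05 (-0.57 ± 0.19 per doubling of time, SE, 8 arrays, limma adjusted p = 0.827), beside 0.987% of all genes that were lower by that rule. Without the TNF-α array at 24 h the AMOTL2 value was -0.26, without both 24 h arrays -0.21, and with the mean of its probe sets -0.19.

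How did the genes behave in control cells? With BSA alone CCN1, CCN2 and AMOTL2 differed by -1.78, -2.74 and -1.10 at 12 h from 2 h, and spanned 2.27, 2.74 and 1.29 over the 4 times. Their largest differences between treatments at a single time from 2 to 12 h were 0.28, -1.26 and 0.52. CCN1 read 10.91, 9.57, 9.13 and 8.64 at 2, 6, 12 and 24 h, lower at each later time, and its other probe set 10.59, 8.94, 8.46 and 8.01. CCN2 read 11.05, 8.53, 8.31 and 9.69. It was lowest at 12 h and then higher again, and its other 2 probe sets were also at least 2-fold lower at 6, 12 and 24 h than at 2 h (by -3.51 to -1.78). Only 0.164% of genes had as wide a range over the 4 BSA arrays as CCN2, and 0.477% as CCN1.

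AMOTL2 read 7.66, 7.05, 6.56 and 6.36 with BSA, also lower at each later time. LATS2 read 8.87, 8.22, 8.26 and 7.77. ANKRD1 was level from 2 to 12 h (5.36 to 5.47) and lower at 24 h (4.65). On the brightest probe sets AXL stayed within 0.24 over the 4 times, the narrowest range of the 10, but its other probe set spanned 0.71. F3 read 7.58, 7.32, 7.26 and 7.17, and 5.91, 5.14, 5.46 and 5.25 on its second probe set. YAP1 was the only member higher at 24 h than at 2 h (by 0.24), after -0.42 at 6 h and 0.17 at 12 h. On 4 of its 8 probe sets the 6 h value was between -0.46 and -0.32, on 1 it was -0.23, and on the other 3 it was between 0.08 and 0.43. TEAD1 differed from 2 h by -0.43 at 6 h and by 0.15 at 12 h.

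**Figure D3:**
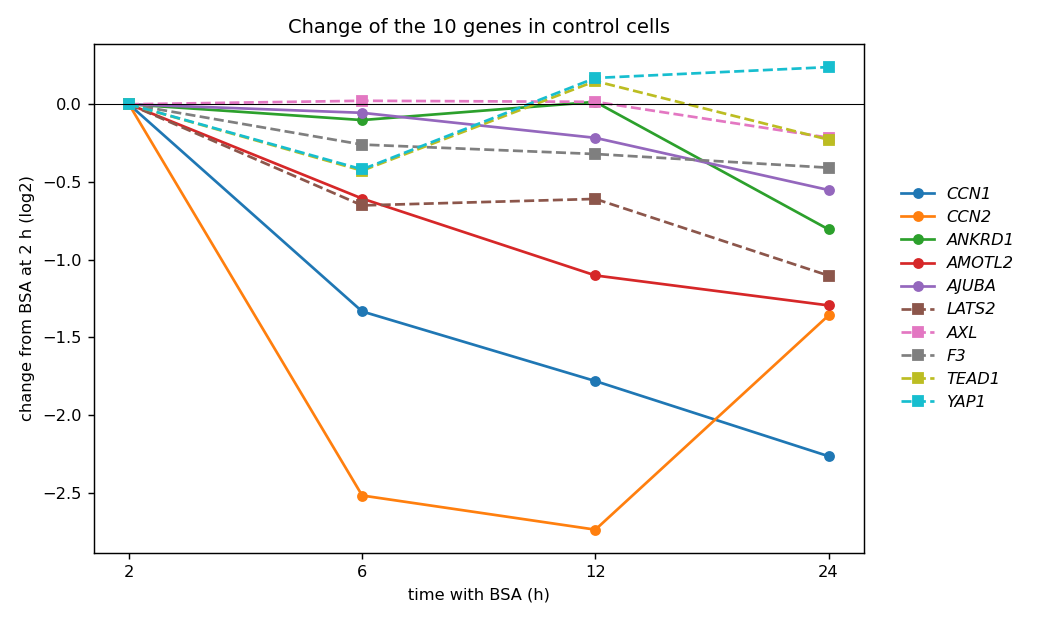
Change from the BSA array at 2 h (log2) of the brightest probe set of each of the 10 genes at 6, 12 and 24 h with BSA, times evenly spaced, 1 array per point. CCN1 and AMOTL2 are lower at each later time, CCN2 is lowest at 12 h (-2.74), and YAP1 ends above its start.

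Against BSA at 2 h, 9 of 10 genes read lower after 6 h, 6 of 10 after 12 h and 9 of 10 after 24 h, with medians of -0.42, -0.27 and -0.68, beside 0.00, -0.03 and -0.03 over all genes. At least 2-fold lower were 2 at 6 h (CCN1 and CCN2), beside 0.965% of all genes, 3 at 12 h (with AMOTL2), beside 0.345%, and 4 at 24 h (with LATS2), beside 1.83%. These 3 comparisons share the 2 h array, so a value particular to that array would enter all of them. A slope on log2 hours over the 4 BSA arrays called 0 of 10, beside 0.0% of all genes. At an unadjusted p under 0.05 there were 4 members with negative slopes, beside 1.75% of all genes: CCN1 (-0.63 ± 0.06 per doubling of time, SE, 4 arrays), AMOTL2 (-0.37 ± 0.05), LATS2 (-0.28 ± 0.06) and AJUBA (-0.15 ± 0.05). Their limma adjusted p was 0.814 each. With the mean of probe sets 3 members had an unadjusted p under 0.05, and the second probe set of AJUBA had a slope of -0.02 ± 0.08 (SE, 4 arrays). CCN2 was not well described by a slope (-0.44 ± 0.35) and was higher at 24 h than at 12 h. The gap of the GAPDH ends was 0.20, 0.37, 0.30 and 0.21 on these 4 arrays at 2, 6, 12 and 24 h and that of ACTB 2.75, 2.75, 3.09 and 3.47, and their part in these values was not tested.

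The TNF-α arm differed over time too. From 2 to 6 h CCN2 was -3.76 apart with TNF-α and -2.52 with BSA, CCN1 -1.59 and -1.33, and F3 -1.43 and -0.26. The second probe set of F3 gave -1.87 with TNF-α and -0.77 with BSA, and the third -0.65 and -0.21. ANKRD1 was 1.72 higher at 6 h than at 2 h with TNF-α and differed by -0.10 with BSA. At least 2-fold lower than at 2 h were 3 genes at 6 h (CCN1, CCN2 and F3), beside 1.1% of all genes, and 4 at 12 h (with AMOTL2), beside 1.22%. ANKRD1 was the 1 gene at least 2-fold higher at both times, beside 1.12% and 1.17%.

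At 24 h the probe sets of a gene disagreed. AXL differed by -3.10 on its brightest probe set (6.84 with TNF-α against 9.94 with BSA) and by 1.04 on the other (7.13 with TNF-α against 6.09 with BSA). LATS2 differed by 1.59 on the brightest (9.36 with TNF-α against 7.77 with BSA) and by -2.04 on the second (3.63 with TNF-α against 5.67 with BSA). CCN2 ran from -2.92 to 0.35 over its 3 probe sets, AJUBA from -2.61 to 0.44, and F3 from -1.63 to 0.95. The 2 probe sets of CCN1 were both lower, by -3.10 and -0.76.

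This spread was measured over genes with at least 2 probe sets above 3.45, the lower quartile of all probe sets. Among 9 such members the median gap between the highest and lowest probe set was 0.18, 0.28 and 0.26 at 2, 6 and 12 h and 2.59 at 24 h, and 8 of 9 had a gap of at least 2 at 24 h. Over the 8872 such genes the median was 0.17, 0.24, 0.24 and 0.82, and 16.3% had a gap of at least 2 at 24 h. The members and these genes were not matched for the number or the level of their probe sets, and both can widen such a gap. In 3 of 9 members (AXL, LATS2 and YAP1) and in 2.41% of the 8872 genes, 1 probe set was at least 2-fold higher and another at least 2-fold lower. The array with the GAPDH gap of 6.28 enters every one of these 24 h values, so no direction is given for any of the 10 genes at 24 h. By the brightest probe set 1 gene was at least 2-fold higher and 4 lower at 24 h, beside 6.1% and 6.67% of all genes.

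What did the rest of the pathway do? Among the genes of the Hippo pathway only FRMD6 passed a test. FRMD6, a FERM domain protein upstream of the kinases, rose with TNF-α from 2 to 12 h by 1.01 ± 0.10 (SE, 3 pairs, limma adjusted p = 0.0348). It read 9.70, 9.37 and 9.05 with TNF-α, against 8.47, 8.35 and 8.27 with BSA, and at 24 h 8.21 with TNF-α against 7.70 with BSA. Its second, dimmer probe set was 0.62, 0.48 and 0.18 higher. Over the 4 times FRMD6 did not pass (0.88 ± 0.14, adjusted p = 0.387).

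Of 21 Hippo kinases and partners, FRMD6 alone passed over 2 to 12 h, beside 0.367% of all genes, with 0 lower. Over the 4 times 0 of 21 passed, beside 0.0164% of all genes. With so few genes called in all, a count of 0 says little for a list this short. The list's median was -0.07, -0.04 and -0.06 at 2, 6 and 12 h. WWC1, also called KIBRA, an activator of LATS kinases, was 0.15, 1.67 and 1.41 higher, and MAP4K4, a kinase that can phosphorylate LATS, 0.17, 1.15 and 1.02. TAOK3, a kinase of the same tier, differed by -0.25, -0.16 and -0.95. These 3 did not pass (limma adjusted p = 0.239, 0.226 and 0.317 over 2 to 12 h). The second probe set of WWC1, dim in both arms, differed by 0.12, 0.22 and 0.02, and that of TAOK3 by -0.23, 0.00 and -0.46. The other probe sets of MAP4K4 were 1.19 to 1.74 higher at 6 h and 0.50 to 1.34 higher at 12 h.

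The nuclear partners of YAP (8 measured) had 0 genes past the threshold over 2 to 12 h in either direction, beside 0.367% of all genes. Their medians were -0.10, -0.19 and -0.03 at 2, 6 and 12 h. WWTR1, which encodes the YAP paralogue TAZ, read 7.96, 7.73 and 7.82 with TNF-α, against 8.19, 8.51 and 8.46 with BSA, and differed by -0.55 ± 0.12 (SE, 3 pairs, limma adjusted p = 0.197). Of its other 2 probe sets both were lower at 6 and 12 h. TEAD2 and TEAD4, relatives of TEAD1, differed by -0.49 and -0.58 at 6 h, but the other 3 probe sets of TEAD2 read -0.04 to 0.03. VGLL3, a TEAD cofactor, differed by -0.07, 0.31 and -0.59 at 2, 6 and 12 h. Its other probe sets, which were dimmer, differed by 0.06 and 0.09 at 6 h and by -0.08 and -0.05 at 12 h.

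Of 15 further targets from a YAP signature 0 passed over 2 to 12 h in either direction, beside 0.367% of all genes. Their medians were 0.04, 0.18 and -0.05 at 2, 6 and 12 h. GADD45A, a stress and growth arrest gene, was 0.70 and 1.82 higher at 2 and 6 h and at least 2-fold higher at 12 h. Over 2 to 12 h it was 1.18 ± 0.21 higher (SE, 3 pairs, limma adjusted p = 0.153). Its BSA values of 9.34, 7.91, 7.87 and 10.81 were lowest at 6 and 12 h, as those of CCN2 were. IGFBP3, a binding protein of insulin-like growth factors, and RBMS3, an RNA-binding protein, differed by -1.08 and -1.09 at 12 h, and by -0.38 and -0.41 on their second probe sets. The growth factor TGFB2 differed by 0.68, 0.67 and 0.00 at 2, 6 and 12 h, and by 0.02, 0.38 and 0.14 on its second probe set. In control cells the medians of these 15 against 2 h were 0.02, 0.22 and -0.23 at 6, 12 and 24 h, where the 10 genes had -0.42, -0.27 and -0.68.

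Cytoskeletal targets of SRF and MRTF (14 of 16 measured) are a comparison list, since they also respond to changes of cell shape. Of these 0 passed over 2 to 12 h, beside 0.367% of all genes, with medians of -0.03, -0.15 and -0.09 at 2, 6 and 12 h. THBS1, thrombospondin 1, differed by 0.26, -0.63 and -1.28, CNN2, a calponin, by -0.13, -0.56 and -0.48, MYL9, a myosin light chain, by -0.21, -0.46 and -0.29, and SRF itself by -0.03, -0.35 and -0.32. The other probe sets of THBS1 ran from -1.54 to -0.035 at 12 h, the latter on a dim probe set. Those of CNN2 ran from -0.51 to -0.05 at 6 h. The second probe set of MYL9 differed by 0.02, -0.27 and -0.18, and that of SRF by -0.03, -0.24 and 0.15. In control cells the list's medians against 2 h were 0.21, 0.00 and -0.65. Of 7 measured relatives of the members 0 passed over 2 to 12 h, beside 0.367% of all genes. TYRO3 and MERTK, the receptors related to AXL, differed by -0.77 and -0.82 at 6 h, and the second, dimmer probe set of TYRO3 by 0.06. CCN4 and CCN5 differed by 0.00 and -0.04 at 6 h, but both were dim from 2 to 12 h (3.53 to 3.81 and 3.12 to 3.36).

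**Figure D4:**
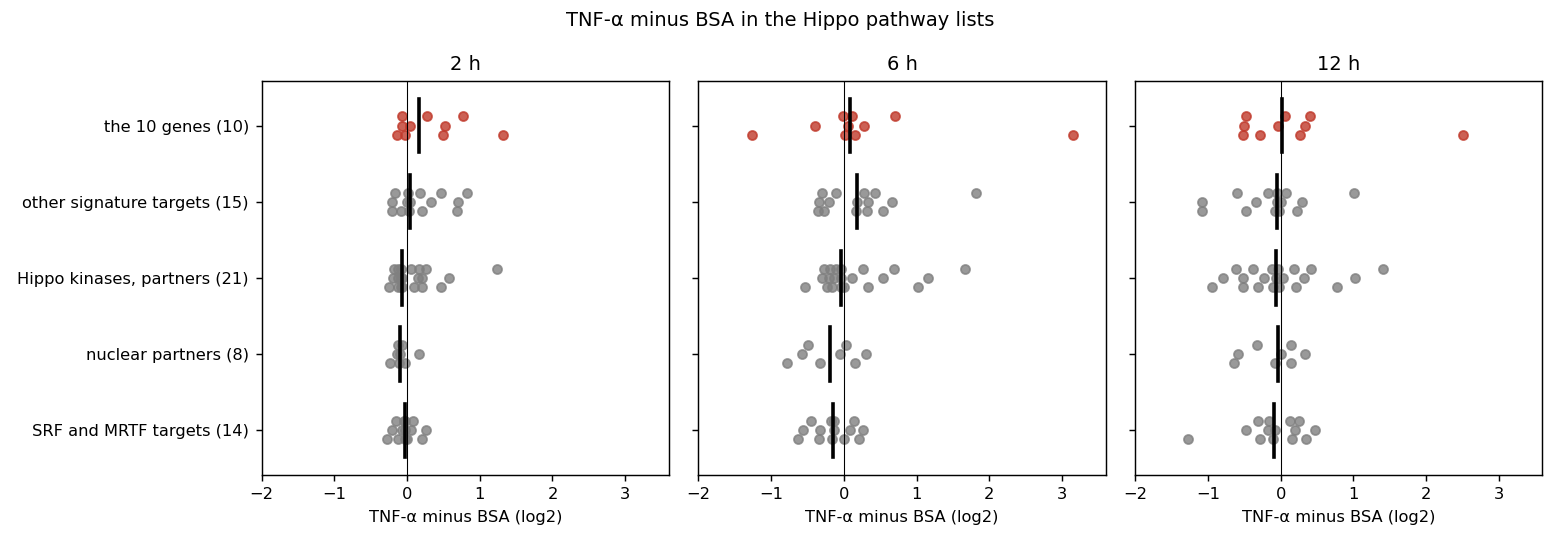
TNF-α minus BSA (log2, brightest probe set) at 2, 6 and 12 h for the 10 genes and for 4 further lists, 1 point per gene and a bar at the median. The lowest row is the comparison list of SRF and MRTF targets. Medians lie between -0.19 and 0.18, and ANKRD1 is the rightmost point at each time.

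The patterns of 4 members over the 7 arrays without TNF-α at 24 h were set beside those of the 3152 genes whose level spanned at least 1. ANKRD1 was most like GBP1, a guanylate-binding protein (r = 0.992), NECAB1 (0.990) and NPTX1 (0.987). CCN1 was most like OPN3 (0.982), the transcription factor KLF5 (0.968) and SERTAD1 (0.957). CCN2 was most like SDHAF4 (0.984), TTC32 (0.982) and SNAPC3 (0.978), and F3 was most like MIDEAS (0.985), PARD6B (0.935) and IRS2 (0.934). Among the members, CCN1 was closest to AMOTL2 (0.944) and CCN2 to F3 (0.823), while ANKRD1 and CCN2 had r = -0.50. The points share their arrays and the order of times, so these values are descriptions.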

How the data were processed

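The submitters deposited 1 table of log2 values, per probe set and array, made with RMA per the submitters' processing notes; RMA corrects background, makes array distributions equal and summarises probes. Which software ran it is not given in the sources used here. Per the labels' protocols 10 ng of TRIzol-extracted RNA was labelled with a kit that primes from the 3′ end, so degraded RNA loses signal away from that end. No normalisation, pseudocount or filter was added.

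Symbols came from the platform annotation, checked through Entrez identifiers (18180 matched, 62 did not). In tests across genes each gene was read by its brightest probe set (mean level of the 8 arrays). Tests used limma 3.58.1 in R 4.3.3 (lmFit, eBayes, two-sided, Benjamini-Hochberg over 18239 genes). The treatment model held time as a factor (3 residual degrees of freedom, 2 without 1 time). The slope of the BSA arm used its 4 arrays (2), and the product of treatment and log2 hours all 8 (4). All were run on simulated data with equal noise on all 8 arrays and no degraded array, which is a simpler setting than these data. Percentages beside counts are the share of all genes called by the same rule. Arrays give no read depth, so their number limits the precision.

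The members and lists were chosen with earlier results of these data known. Named genes are all members, up to 4 per list (those past a threshold, then the largest mean difference over 2, 6 and 12 h), and the 3 genes most like CCN1, CCN2, ANKRD1 and F3. The alternatives were other normalisations, probe set rules, filters, weights, time scales and left-out arrays. Promoter sequences are from RefSeq, GRCh38.p14.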

Additional observations from a re-analysis of the deposited data

Results flagged for a closer look

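AMOTL2 had differences of opposite sign at 2 and 24 h on its brightest probe set alone. There it was 0.52 higher with TNF-α at 2 h and differed by -1.72 at 24 h, both outside the range that held the middle 90% of genes at that time. The product of treatment and log2 hours gave -0.57 ± 0.19 per doubling of time (SE, 8 arrays), which did not pass in limma (adjusted p = 0.827) and was -0.26 without the TNF-α array at 24 h. The 24 h value rests on the array with the GAPDH gap of 6.28, and the 2 dimmer probe sets of AMOTL2 were 0.38 and 0.21 higher at 24 h.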

How the results depend on the processing

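Under the alternatives listed here no member passed the threshold, with limma adjusted p from 0.0809 for treatment, 0.122 for the BSA slope and 0.274 for the dependence on time. For treatment 99 of 110 member values kept their sign, for the BSA slope 86 of 90 and for the dependence on time 36 of 50. Some of these signs could not turn, since the filter on dim genes leaves each member's treatment value and BSA slope unchanged. So do the fit without a time block for treatment and the joint fit of the 8 arrays for the slope. For ANKRD1, with 1 probe set, the mean of probe sets is the same value. The counts for treatment and slope therefore overstate how far the signs were tested. The treatment fit over the 4 times called 3 genes. It called 1 with the mean of probe sets, 5 without time as a block, 62 with array quality weights, and 0 to 67 when 1 time was left out, with 67 without 24 h. Without 24 h, alternatives chosen after seeing the data called 98 probe sets and, with the mean of probe sets, 36 genes.

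Signs of treatment values that had not passed turned as follows. CCN1 was 0.15 with array weights and 0.25 with the mean of probe sets without 24 h, and leaving out 1 time gave -0.16 to 0.19. AMOTL2 was 0.21 and 0.13 in the same fits, and -0.49 to 0.25 with 1 time left out. AXL was 0.062 and 0.015, and -0.99 to 0.18. F3 was -0.034 with the mean of probe sets, and -0.033 to 0.44 with 1 time left out. With 1 BSA array left out the slope ran from -1.11 to 0.58 for CCN2, from -0.12 to 0.0068 for AXL and from -0.056 to 0.10 for TEAD1. The value of CCN2 thus rests on the 2 h array. The dependence on time, without the TNF-α array or both arrays of 24 h, was -0.91 to -0.24 for CCN2, 0.52 to 0.70 for ANKRD1, 0.047 to 0.11 for AJUBA, -0.044 to -0.013 for LATS2 and 0.13 to 0.19 for AXL. With the mean of probe sets it was -0.20 for CCN2 and -0.12 for LATS2, and for F3 it was 0.025 on hours and 0.014 after a second quantile normalisation. The cause was not tested. The treatment fit is itself paired by time, with time as the block, and the labels give no replicate numbers to pair by. The number of arrays, 8, limits the precision.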
